A study of Mus musculus with 6 samples.

Results

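The genes described here are the MHC class II presentation genes H2-Aa, H2-Ab1, H2-Eb1, H2-DMa, H2-DMb1, H2-DMb2, Cd74 and Ciita, chosen by symbol, 8 of the 45777 genes in the deposited table. All 8 were found, and all 8 passed the filter on low counts. Total RNA from mouse small intestine was sequenced in 6 libraries, 3 labelled PKCzeta overexpression (replicates 2-1, 4-1 and 4-2) and 3 labelled control, whose titles carry GFP, a green fluorescent protein (replicates 1-1, 1-4 and 3-1). PKCzeta, the product of Prkcz, is a kinase of the atypical protein kinase C class, and the study asked which genes change when it is overexpressed. All 6 titles begin with the letters DIO, which the labels do not explain. The strain, age, vector, promoter and number of animals are not given in the sources used here, and p-values therefore measure the spread between these samples, which may be technical.

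MHC class II molecules carry peptides from endocytosed proteins to the cell surface, where CD4+ T cells read them. An alpha and a beta chain form the peptide groove, the invariant chain Cd74 fills and guides it, and the H2-DM dimer later exchanges the remaining invariant chain fragment for peptide. Ciita, the class II transactivator, is recruited to a conserved set of promoter boxes and switches these genes on. Dendritic cells, macrophages and B cells carry class II constantly, and enterocytes of the small intestine are known to carry it as well.

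Total counts ran from 77573133 to 87572356 in the PKCzeta-labelled libraries and from 85411847 to 93742978 in the GFP-labelled libraries. Prkcz did not go with the labels, at 82.5, 100.1 and 57.0 CPM (the count divided by the library's size after TMM scaling) in PKCzeta replicates 2-1, 4-1 and 4-2 and at 70.5, 98.6 and 96.9 CPM in GFP replicates 1-1, 1-4 and 3-1. Its log2 fold change was -0.15 (SE 0.24, adjusted p 0.950 in edgeR's quasi-likelihood test), so every direction below is one between labels. The enterocyte marker Vil1 stood at 1973 to 2511 CPM in the PKCzeta-labelled libraries and 2534 to 3797 CPM in the GFP-labelled libraries. Lct, another enterocyte marker, was less even. It ran from 2.31 to 63.3 CPM in the PKCzeta-labelled libraries and from 39.6 to 200 CPM in the GFP-labelled libraries. Libraries stood apart in their cell markers. PKCzeta replicate 4-2 had the lowest sum of 14 enterocyte markers (17566 CPM, against 29379 to 49415 CPM in the other 5 libraries). The sum of 11 B cell markers was highest in PKCzeta replicate 2-1 (339 CPM) and lowest in GFP replicate 3-1 (5.12 CPM). In bulk tissue, fewer cells of a type and less RNA per cell cannot be told apart.

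The promoter stretches below are shown because the class II genes are known for a shared X box and Y box, through which Ciita acts. RefSeq promoter windows (GRCm38.p6, the assembly that mm10 names) were matched for 5 of the 8 members, H2-Aa, H2-Eb1, H2-DMa, H2-DMb1 and H2-DMb2, and 80 bases around the Y box are printed for 4 of these and for the related chains H2-Ob and H2-Eb2. Letters run 5′ to 3′ on the gene's strand. Capitals mark the X box core (AACNGATG) and the Y box (ATTGG) where a search of both strands found them, and positions count backward from the transcript start on which the RefSeq window is built. In H2-DMb2 and H2-DMa that start lies inside the gene's annotated span, downstream of its outer end.
H2-Aa (chr17:34287852-34287931, minus strand): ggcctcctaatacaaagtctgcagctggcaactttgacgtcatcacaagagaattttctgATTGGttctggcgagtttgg
H2-Eb1 (chr17:34305748-34305827, plus strand): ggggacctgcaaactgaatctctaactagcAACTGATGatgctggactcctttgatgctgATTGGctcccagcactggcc
H2-DMb1 (chr17:34153070-34153149, plus strand): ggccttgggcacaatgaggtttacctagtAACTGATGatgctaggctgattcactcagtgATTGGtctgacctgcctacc
H2-DMb2 (chr17:34145099-34145178, plus strand): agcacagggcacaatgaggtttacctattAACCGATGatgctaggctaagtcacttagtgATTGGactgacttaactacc
H2-Ob (chr17:34238788-34238867, plus strand): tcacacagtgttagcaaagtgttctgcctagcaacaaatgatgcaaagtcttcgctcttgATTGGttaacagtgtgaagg
H2-Eb2 (chr17:34325515-34325594, plus strand): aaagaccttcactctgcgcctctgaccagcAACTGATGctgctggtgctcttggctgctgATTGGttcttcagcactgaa

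Each of the 6 stretches was cut around its Y box letters, so their presence there was set by the choice of stretch. These letters began at -48 in H2-Aa, -59 in H2-Eb1, -61 in H2-DMb1, -90 in H2-DMb2, -57 in H2-Ob and -100 in H2-Eb2. The X core letters stood upstream in H2-Eb1, H2-DMb1, H2-DMb2 and H2-Eb2. There, 30, 31, 31 and 30 bases lay between the start of the X core and the start of the Y box. The search took exact letters only, and it found no X core in the stretch of H2-Aa or of H2-Ob, which is also a beta chain gene. Of the 32851 promoter windows of 300 bases, 37.4% hold the Y box letters, 2.32% hold the X core, and 6 windows (0.0183%) hold an X core followed by a Y box on 1 strand at 25 to 40 bases start to start, a spacing set after these windows were seen. Those 6 include the windows of H2-Eb1, H2-DMb1, H2-DMb2 and H2-Eb2. The E box letters CACGTG were found in the window of no matched member, against 7.15% of all windows. The letters of the gamma-activated site (TTCNNNGAA) were found in the window of H2-DMb2, at -218, and of no other matched member. They stood in 8.3% of all windows. Neither window of H2-DMa held the X core, and 1 of them held the Y box letters at -198.

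H2-Aa and H2-Ab1 encode the alpha and beta chain of the I-A molecule and lie on chromosome 17, at 34282744 to 34287823 and 34263227 to 34269418 (mm10). H2-Aa had 557, 534 and 237 CPM in PKCzeta replicates 2-1, 4-1 and 4-2, against 735, 607 and 689 CPM in GFP replicates 1-1, 1-4 and 3-1. The groups did not overlap, and replicate 4-2 was the lowest by far. H2-Aa averaged 443 ± 178 CPM with the PKCzeta label and 677 ± 64.4 CPM with the GFP label (SD, n = 3 each). The difference fitted for H2-Aa was -0.61 on the log2 scale (SE 0.31, 95% interval -1.33 to 0.11, edgeR adjusted p 0.917).

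H2-Ab1 had 389.6, 421 and 202 CPM in PKCzeta replicates 2-1, 4-1 and 4-2, against 488, 538 and 529 CPM in GFP replicates 1-1, 1-4 and 3-1. In CPM, all 3 PKCzeta-labelled libraries lay below all 3 GFP-labelled ones, again with replicate 4-2 at the bottom. For H2-Ab1 the fitted log2 change was -0.62 with an SE of 0.27 (95% interval -1.24 to 0.0034), at an unadjusted p of 0.0510 and an edgeR adjusted p of 0.915. This was the smallest unadjusted p among the 8 members.

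H2-Eb1, the beta chain of I-E (chromosome 17, 34305867 to 34316674), showed a smaller difference. It had 305, 231 and 151 CPM in PKCzeta replicates 2-1, 4-1 and 4-2, and 283, 288 and 306 CPM in GFP replicates 1-1, 1-4 and 3-1. Replicate 2-1 lay inside the range of the GFP-labelled libraries, so the groups overlapped. The log2 fold change was -0.35 (SE 0.25, edgeR adjusted p 0.917). The partner of this chain is the I-E alpha chain, which mice of the b haplotype are known to lack. Its row, H2-Ea-ps, held 3 counts in PKCzeta replicate 4-2 and 0 counts in the other 5 libraries, where a count of 0 allows up to 3.

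Cd74, the invariant chain gene, lies on chromosome 18, apart from the MHC on chromosome 17, and followed the I-A chains. It had 964, 829 and 429.7 CPM in PKCzeta replicates 2-1, 4-1 and 4-2, against 1139, 1083 and 1099.7 CPM in GFP replicates 1-1, 1-4 and 3-1. The groups did not overlap, with means of 741 ± 278 CPM for the PKCzeta label and 1107 ± 28.6 CPM for the GFP label (SD, n = 3 each), so the spread lay in the PKCzeta-labelled libraries. Its fitted log2 change was -0.58, with an SE of 0.29 (95% interval -1.24 to 0.086, edgeR adjusted p 0.917).

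The H2-DM genes, which encode the peptide exchange dimer, split. H2-DMb1 (chromosome 17, 34153191 to 34160229) had 50.1, 68.4 and 21.0 CPM in PKCzeta replicates 2-1, 4-1 and 4-2, against 66.9, 68.2 and 95.9 CPM in GFP replicates 1-1, 1-4 and 3-1. Replicate 4-1 lay just above the middle GFP-labelled library. The fitted log2 change was -0.73 for H2-DMb1 (SE 0.39) and -0.46 for H2-DMa (SE 0.30), each with an edgeR adjusted p of 0.917. H2-DMa, the alpha chain, ranged from 16.4 to 37.5 CPM in the PKCzeta-labelled libraries and from 35.9 to 46.0 CPM in the GFP-labelled libraries. The annotated span of H2-DMa overlaps Brd2, which had 29896 counts over the 6 libraries against 17381 for H2-DMa, so reads of the 2 genes may have been shared.

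H2-DMb2, the second H2-DM beta chain (chromosome 17, 34143229 to 34151553), had another pattern. It had 48.1, 5.21 and 16.7 CPM in PKCzeta replicates 2-1, 4-1 and 4-2, and 19.7, 12.4 and 6.46 CPM in GFP replicates 1-1, 1-4 and 3-1. The highest and the lowest of all 6 values were both in PKCzeta-labelled libraries. Its fitted log2 change was 0.86, with an SE of 0.75 (95% interval -0.89 to 2.62, edgeR adjusted p 0.917). H2-DMb1 and H2-DMb2 are close copies: of the 50-base windows in the coding transcripts of H2-DMb1 (GENCODE M21), 27.2% also occur in those of H2-DMb2, so some reads could be placed in either. H2-DMb2 took 49.0%, 7.08% and 44.35% of the summed counts of both in PKCzeta replicates 2-1, 4-1 and 4-2, and 22.7%, 15.4% and 6.31% in GFP replicates 1-1, 1-4 and 3-1. Their sum was 98.2, 73.6 and 37.7 CPM in the PKCzeta-labelled libraries and 86.6, 80.6 and 102.4 CPM in the GFP-labelled libraries, in the same order.

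Ciita (chromosome 16, 10480014 to 10531064) overlapped between the groups. It had 38.2, 16.0 and 21.5 CPM in PKCzeta replicates 2-1, 4-1 and 4-2, and 25.7, 15.5 and 21.2 CPM in GFP replicates 1-1, 1-4 and 3-1. Replicate 2-1 was the highest of the 6, and PKCzeta replicate 4-2, the lowest for the I-A chains and Cd74, stood between 2 GFP-labelled libraries. Its fitted log2 change was 0.28, with an SE of 0.34 (95% interval -0.50 to 1.06, edgeR adjusted p 0.931). Counts of Ciita per 100 counts of H2-Ab1 were 9.81, 3.81 and 10.7 in PKCzeta replicates 2-1, 4-1 and 4-2, against 5.26, 2.89 and 4.00 in GFP replicates 1-1, 1-4 and 3-1.

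**Figure D1:**
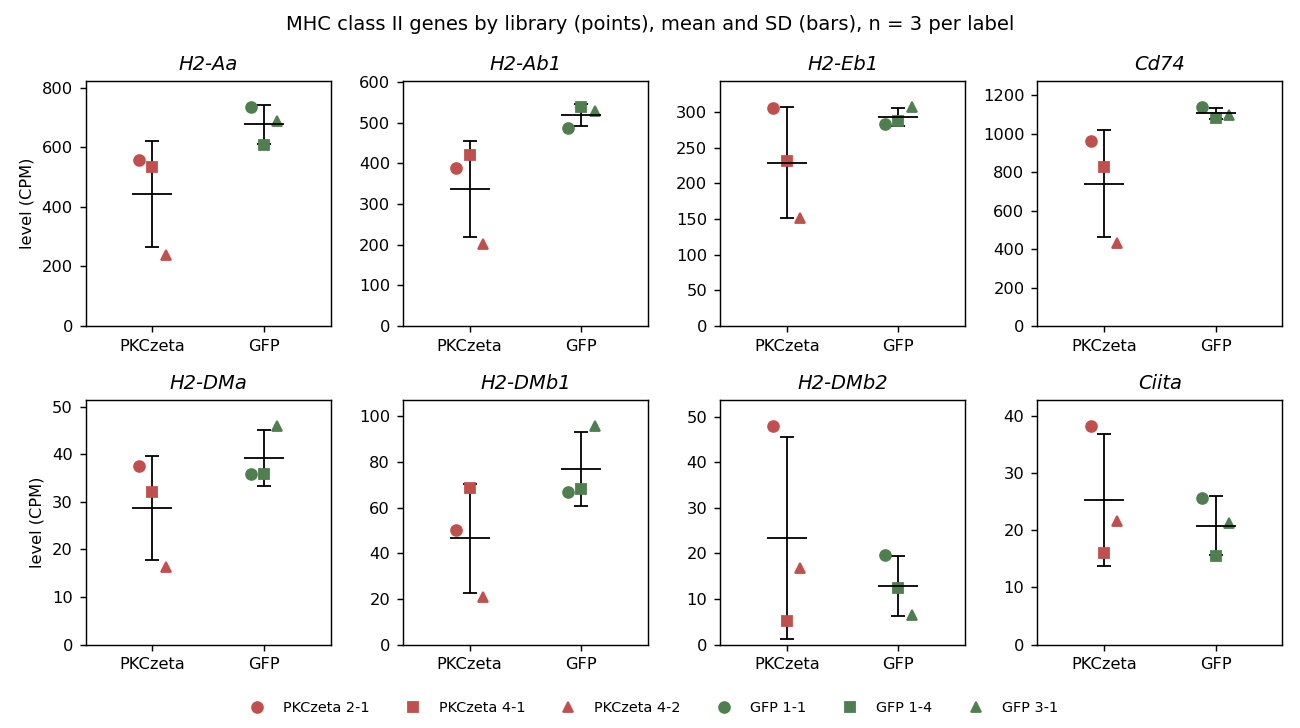
Level of each of the 8 genes in CPM (vertical axis, from 0) in PKCzeta-labelled (left) and GFP-labelled (right) libraries, where points are libraries and bars give the mean and SD (n = 3). PKCzeta replicate 4-2 is the lowest library for H2-Aa, H2-Ab1, H2-Eb1, Cd74, H2-DMa and H2-DMb1, and replicate 2-1 is the highest for H2-DMb2 and Ciita.

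Across the 8 members, 6 had lower and 2 had higher fitted values with the PKCzeta label, with a median log2 fold change of -0.52, where 45.7% of the 18456 tested genes lay below 0 and their median was 0.035. Of the 8 members, 3 (H2-Aa, H2-Ab1 and Cd74) had groups that did not overlap with PKCzeta lower, which held for 5.66% of all tested genes. Groups apart in that direction were not particular to class II. They were also found for 5 of 13 MHC class I presentation genes and 7 of 14 enterocyte markers. With PKCzeta higher, 0 of the 8 members had such groups (4.72% of all). None of the 8 passed an adjusted p of 0.05 in edgeR, and 0 of all 18456 genes did (0%). With p not adjusted, 0 of 8 members were under 0.05, against 5.48% (1012) of all tested genes. That count was 2 (H2-Eb1 and Cd74) without PKCzeta replicate 2-1, where 1364 of 18983 tested genes had such a p. Without PKCzeta replicate 4-1 it was 3 (H2-Ab1 and H2-DMb1 lower, H2-DMb2 higher), where 1004 of 19021 genes did. It was 1 (H2-Ab1) with no filter, in DESeq2 and in voom. All genes with such a p were 1298 of 27449 with no filter, 1193 of 18456 in DESeq2 and 1539 of 18456 in voom. DESeq2 called 82 genes in all, none of them a member, while voom and the limma fits of TPM called 0.

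PKCzeta replicate 4-2 set much of the size of these differences. Without it, the log2 fold change was -0.31 for H2-Aa, -0.35 for H2-Ab1, -0.12 for H2-Eb1, -0.30 for Cd74, -0.17 for H2-DMa and -0.37 for H2-DMb1. These 6 genes kept a negative value when any 1 library was left out. Without PKCzeta replicate 2-1, the value was -0.64 for H2-Eb1 and -0.72 for H2-DMa. H2-DMb1 had -1.12 without replicate 4-1.

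The higher values of H2-DMb2 and Ciita hung on PKCzeta replicate 2-1. Without it, the log2 fold change was -0.29 for H2-DMb2 and -0.19 for Ciita. Leaving out any other library gave H2-DMb2 values of 0.55 (without GFP replicate 3-1) to 1.33 (without PKCzeta replicate 4-1), with 1.30 without GFP replicate 1-1. Ciita had 0.11 without GFP replicate 1-4, 0.45 without GFP replicate 1-1 and 0.52 without PKCzeta replicate 4-1.

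**Figure D2:**
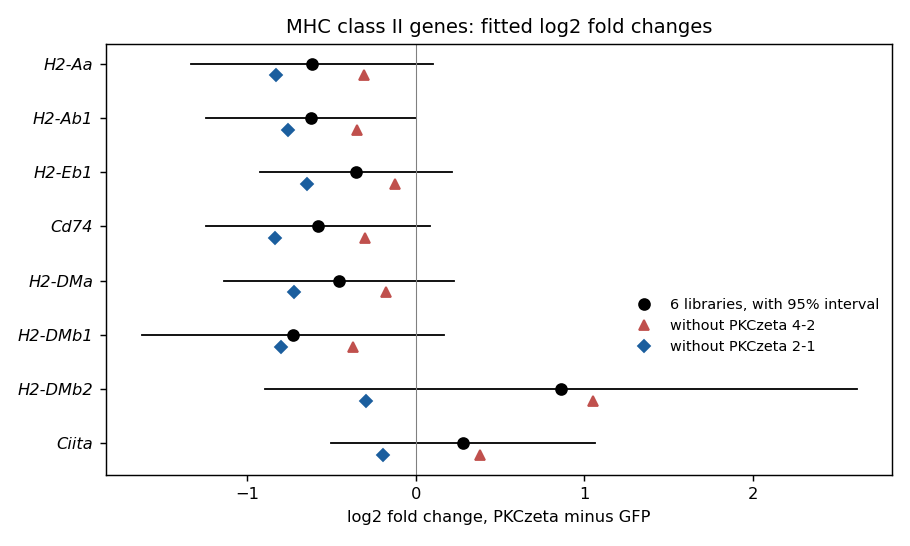
Log2 fold change (PKCzeta minus GFP, horizontal axis) of the 8 genes from the fit of all 6 libraries, with its 95% interval, and the value without PKCzeta replicate 4-2 or without PKCzeta replicate 2-1. All 8 intervals hold 0, that of H2-Ab1 just so (its upper end is 0.0034), and H2-DMb2 and Ciita change sign without replicate 2-1.

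Levels of different genes are compared in TPM, which is scaled to transcript length. The order by mean TPM was Cd74, H2-Aa, H2-Ab1, H2-Eb1, H2-DMb1, H2-DMa, H2-DMb2 and Ciita. Each gene lay above the next in 6 of 6 libraries, except that H2-DMa lay above H2-DMb2 in 4 of 6. The exceptions were PKCzeta replicates 2-1 and 4-2, so the pair stood the other way round with the PKCzeta label, at 16.1 TPM for H2-DMa and 21.4 TPM for H2-DMb2, against 23.1 TPM for H2-DMa and 10.8 TPM for H2-DMb2 with the GFP label. Cd74 had 781 ± 210 TPM with the PKCzeta label and 1029.8 ± 75.04 TPM with the GFP label, and Ciita had 5.35 ± 1.71 TPM with the PKCzeta label and 3.40 ± 0.461 TPM with the GFP label (SD, n = 3 each). The length implied by the deposited counts and FPKM values, relative to that of H2-Aa, varied most between libraries for H2-DMa and Ciita, which shifts their TPM. For H2-DMa it was 3.56 in PKCzeta replicate 4-1 and 1.58 to 1.80 in the other 5 libraries. The greater length lowers the H2-DMa TPM of replicate 4-1, and with it the PKCzeta mean of H2-DMa given above. For Ciita it was 5.66, 5.23 and 5.84 in PKCzeta replicates 2-1, 4-1 and 4-2, and 7.145, 6.02 and 5.76 in GFP replicates 1-1, 1-4 and 3-1. The Ciita difference was 0.50 on log2(TPM + 1), against a fitted log2 change of 0.28 in counts. H2-Ab1, whose relative length was 1.058 in each library, also moved upward, from -0.62 in counts to -0.46 on log2(TPM + 1). The median over genes moved from 0.035 to 0.14 between these scales. How much of the wider Ciita gap goes with length was not tested. In TPM the H2-Ab1 groups nearly met, at 481.1 in PKCzeta replicate 4-1 and 482.4 in GFP replicate 3-1.

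The parts of the molecule kept their proportions better than their levels. The TPM of Cd74 relative to the summed TPM of H2-Aa, H2-Ab1 and H2-Eb1 was 0.763, 0.678 and 0.7175 in PKCzeta replicates 2-1, 4-1 and 4-2, and 0.734, 0.733 and 0.7003 in GFP replicates 1-1, 1-4 and 3-1. The H2-Aa to H2-Ab1 ratio was 1.37 ± 0.135 with the PKCzeta label and 1.39 ± 0.199 with the GFP label (SD, n = 3 each). Both ratios overlapped between the groups, also in replicate 4-2, where the levels were lowest. The H2-Eb1 to H2-Ab1 ratio was less even, at 0.560, 0.393 and 0.535 in the PKCzeta-labelled libraries and 0.414, 0.383 and 0.414 in the GFP-labelled libraries.

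**Figure D3:**
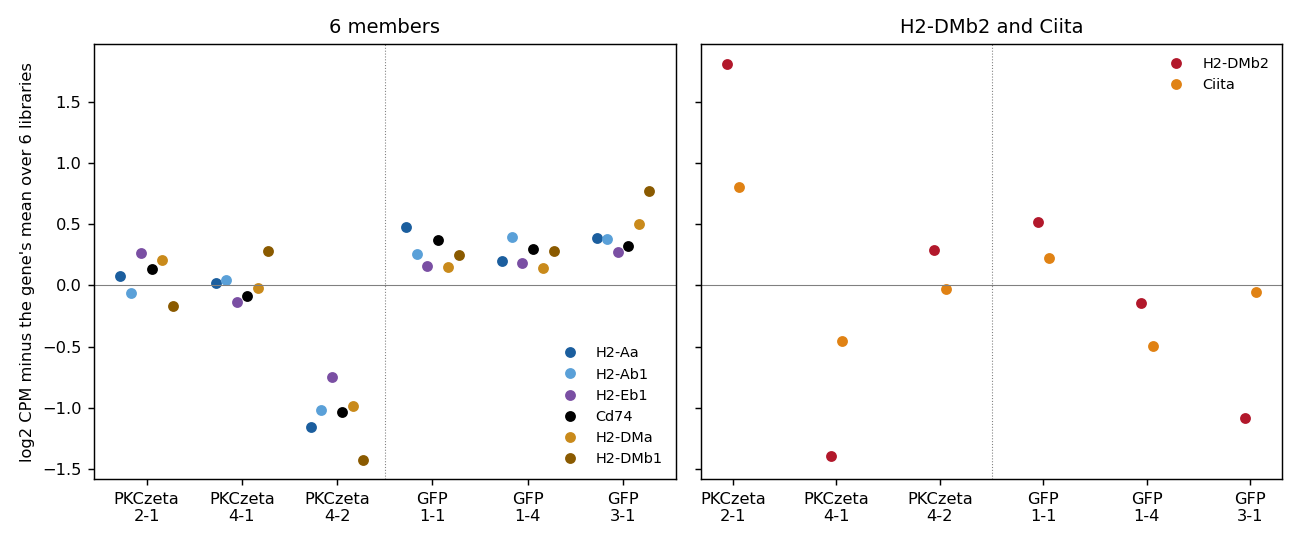
Log2 CPM of each gene minus its own mean over the 6 libraries (vertical axis), by library, with PKCzeta-labelled libraries left of the dotted line. On the left, H2-Aa, H2-Ab1, H2-Eb1, Cd74, H2-DMa and H2-DMb1 share a low point in PKCzeta replicate 4-2 (-0.75 to -1.42), and on the right H2-DMb2 (1.81) and Ciita (0.80) peak in PKCzeta replicate 2-1.

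Enterocyte genes were low in the same libraries as the I-A chains and Cd74. The sum of the 14 enterocyte markers was 29379, 36728 and 17566 CPM in PKCzeta replicates 2-1, 4-1 and 4-2, against 49415, 46306 and 41287 CPM in GFP replicates 1-1, 1-4 and 3-1. All 14 had lower fitted values with the PKCzeta label (median log2 fold change -0.88), 8 with an edgeR p under 0.05 before adjustment (3.07% of all genes in that direction), and none was at 0 in any library. H2-Ab1 per 1000 CPM of this sum was 13.3, 11.5 and 11.5 CPM in PKCzeta replicates 2-1, 4-1 and 4-2, against 9.87, 11.6 and 12.8 CPM in GFP replicates 1-1, 1-4 and 3-1. On this scale the groups overlapped, with means of 12.1 ± 1.04 for the PKCzeta label and 11.4 ± 1.48 for the GFP label (SD, n = 3 each). For H2-Aa they were 15.7 ± 2.89 for the PKCzeta label and 14.9 ± 1.79 for the GFP label (SD, n = 3 each). H2-Eb1 had 8.42 ± 2.05 with the PKCzeta label and 6.45 ± 0.874 with the GFP label. Ciita had 0.988 ± 0.479 and 0.456 ± 0.104, in that order. Both genes overlapped between the groups. Of the members, only H2-DMb1 had a lower mean with the PKCzeta label, at 1.59 against 1.72. Fabp2 and Sis were the largest parts of the enterocyte sum in each library, at 15337 and 10120 CPM in GFP replicate 1-1.

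The SD of log2 CPM of H2-Ab1 over the 6 libraries was 0.53, and it was 0.15 relative to the enterocyte sum. For H2-Aa the SD was 0.59 alone and 0.20 relative to that sum, and for Cd74 it was 0.53 and 0.20. Among the 12 marker lists, the enterocyte list gave the smallest such SD for H2-Aa, H2-Ab1, Cd74, H2-DMa and H2-DMb1, while for H2-Eb1 the list of ILC3 markers (type 3 innate lymphoid cells) did (0.30, against 0.33 for enterocytes). Relative to the 10 general epithelial markers the SD of H2-Ab1 was 0.54, and their sum was 9198 to 10582 CPM in the PKCzeta-labelled libraries and 8669 to 11818 CPM in the GFP-labelled libraries. These SDs describe values from the same 6 libraries. The part of enterocytes in the lower class II levels was not tested.

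The mean profile of H2-Aa, H2-Ab1, H2-Eb1 and Cd74 over the 6 libraries was compared with 9773 other genes with a mean of at least 5 CPM. Genes with Gm, Rik, LOC or ENS symbols and immunoglobulin and T cell receptor segments were left out. The nearest of the 9773 were Dpyd, Gal3st2, Ocm, Gal3st2c and Gal3st2b. The root-mean-square distance in log2 CPM was 0.047, 0.060, 0.062, 0.071 and 0.078. Dpyd, which encodes the first enzyme of pyrimidine breakdown, had 254, 236 and 125 CPM in PKCzeta replicates 2-1, 4-1 and 4-2, against 311, 284 and 288 CPM in GFP replicates 1-1, 1-4 and 3-1. The 3 Gal3st2 genes encode related galactose sulfotransferases and may share reads, and Ocm encodes the calcium-binding protein oncomodulin. Of the 4 genes averaged, Cd74 lay at 0.039 and H2-Eb1 farthest, at 0.15, with 30 of the 9773 genes nearer. Of the other members, H2-DMa lay at 0.12 with 8 such genes nearer, H2-DMb1 at 0.30 with 674 nearer, Ciita at 0.62 and H2-DMb2 at 1.20.

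H2-DMb2 was ordered by library much as B cell genes were, and the dendritic cell and T cell marker sums had a like order. The sum of the 11 B cell markers was 339, 5.73 and 138 CPM in PKCzeta replicates 2-1, 4-1 and 4-2, and 130.3, 59.0 and 5.12 CPM in GFP replicates 1-1, 1-4 and 3-1, a 66.1-fold range, while H2-DMb2 spanned a 9.22-fold range. Both were highest in PKCzeta replicate 2-1 and lowest in PKCzeta replicate 4-1 and GFP replicate 3-1. The SD of log2 CPM of H2-DMb2 was 1.16 alone and 1.48 relative to the B cell sum, and it was smallest relative to the T cell sum (0.69), followed by the dendritic cell sum (0.85). All 11 markers had higher fitted values with the PKCzeta label (median log2 fold change 1.38), 0 of them with an edgeR p under 0.05 before adjustment, and none was at 0 in any library. The B cell antigen receptor partner Cd79a had 27.1, 0.615 and 7.62 CPM in PKCzeta replicates 2-1, 4-1 and 4-2, and 8.42, 4.66 and 0.460 CPM in GFP replicates 1-1, 1-4 and 3-1. The part of B cells, T cells or dendritic cells in the H2-DMb2 and Ciita values was not tested.

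The I-A chains did not follow the B cell genes. H2-Ab1 stood at 421 CPM in PKCzeta replicate 4-1 and 529 CPM in GFP replicate 3-1, where the B cell sum was under 6 CPM, and at 389.6 CPM in PKCzeta replicate 2-1, where it was 339 CPM. Ciita lay between the patterns. Its SD of log2 CPM was 0.48 alone, 0.81 relative to the enterocyte sum and 0.23 relative to the sum of the 10 T cell markers, the smallest of the 12 lists. That T cell sum was 51.6, 21.0 and 29.0 CPM in PKCzeta replicates 2-1, 4-1 and 4-2, and 32.6, 18.8 and 18.9 CPM in GFP replicates 1-1, 1-4 and 3-1.

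**Figure D4:**
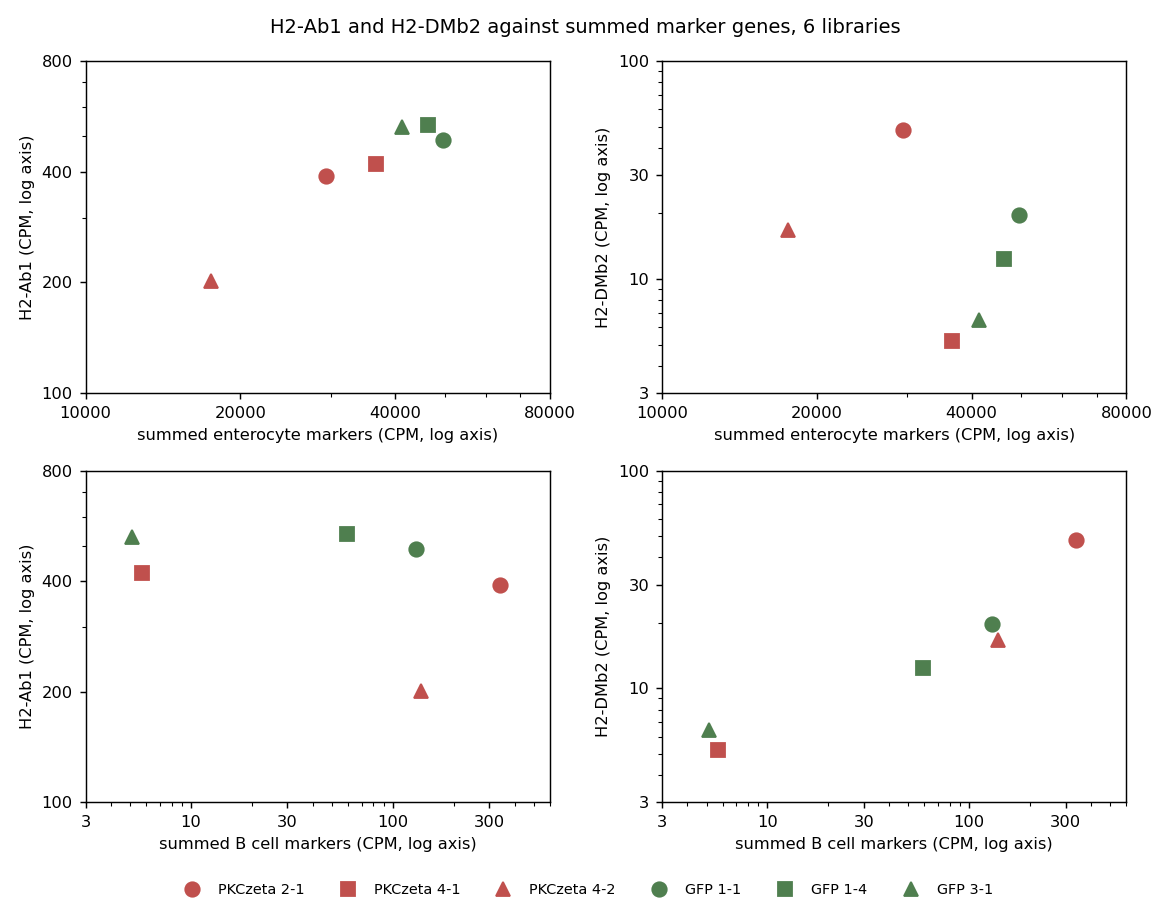
Level of H2-Ab1 (left column) and H2-DMb2 (right column) against the summed enterocyte markers (top) and the summed B cell markers (bottom), in CPM on log axes, 1 point per library, with PKCzeta-labelled libraries in red and GFP-labelled libraries in green. H2-Ab1 is lowest in PKCzeta replicate 4-2, where the enterocyte sum is 17566 CPM, and H2-DMb2 is highest in PKCzeta replicate 2-1, where the B cell sum is 339 CPM.

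Marker sums of the professional antigen-presenting cells overlapped between the groups. The macrophage sum of 12 markers was 398, 455 and 407 CPM in PKCzeta replicates 2-1, 4-1 and 4-2, and 415, 376 and 289 CPM in GFP replicates 1-1, 1-4 and 3-1. Of these 12 markers 11 had higher fitted values (median log2 fold change 0.22), 0 at an unadjusted p under 0.05. Lyz2 and Mertk were the largest parts of the macrophage sum in each library, at 190 and 83.4 CPM in PKCzeta replicate 2-1. The dendritic cell sum of 11 markers was 71.1, 43.6 and 62.4 CPM in the PKCzeta-labelled libraries and 57.8, 45.3 and 35.8 CPM in the GFP-labelled libraries, in the same order, with 8 of 11 higher and 1 of them at an unadjusted p under 0.05 (2.41% of all genes). The dendritic cell sum ranks the 6 libraries as the B cell sum does. Neutrophil markers, which are not class II genes, were higher in 6 of 6 tested (median log2 fold change 3.08), all 6 at an unadjusted p under 0.05 (2.41% of all genes in that direction), with sums of 6.27, 51.8 and 30.6 CPM in PKCzeta replicates 2-1, 4-1 and 4-2 and 2.00 to 5.44 CPM in the GFP-labelled libraries. Their part in the class II values was not tested.

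Other class II chains and their modulators had 5 higher and 1 lower of 6 tested (median log2 fold change 1.06), 0 with an edgeR p under 0.05. Those with the smallest p were Cd83, a surface protein that stabilises class II (1.04, SE 0.61), and March1, the ubiquitin ligase that removes it (1.10, SE 0.86). H2-Ob, the beta chain of the H2-DO dimer that restrains H2-DM and is known from B cells, was chosen after its values were seen. It had 59.2, 0.750 and 18.1 CPM in PKCzeta replicates 2-1, 4-1 and 4-2, and 19.4, 8.02 and 1.43 CPM in GFP replicates 1-1, 1-4 and 3-1, the same extremes as H2-DMb2. Its partner H2-Oa had 11.5, 0.652 and 4.62 CPM in the PKCzeta-labelled libraries against 6.05, 2.43 and 0.763 CPM in the GFP-labelled libraries, in that order. H2-Eb2, a further class II beta chain gene, had 27.6, 0.529 and 15.1 CPM in the PKCzeta-labelled libraries against 12.5, 7.44 and 0.533 CPM in the GFP-labelled libraries. All 3 were highest in PKCzeta replicate 2-1. The X core and Y box letters shown above stood before H2-Eb1 and H2-DMb1, which were lowest in PKCzeta replicate 4-2. They also stood before H2-DMb2 and H2-Eb2, which were highest in PKCzeta replicate 2-1. No exact X core was found in the stretch of H2-Aa, lowest in replicate 4-2, or of H2-Ob, highest in replicate 2-1. A link between these letters and the library patterns was not tested.

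Among the transcription factors of class II promoters, 9 of 13 had higher and 4 lower fitted values (median log2 fold change 0.11), 3 of them higher with an edgeR p under 0.05 before adjustment (2.41% of all genes in that direction). The 2 with the smallest p were Spi1, the myeloid and B cell factor PU.1 (0.70, SE 0.26), and Nlrc5, the class I counterpart of Ciita (1.03, SE 0.40). Nlrc5 was counted both here, as 1 of the 3, and among the class I presentation genes. The RFX subunits, which bind the X box, had 0.17 for Rfx5 (SE 0.30), 0.16 for Rfxap (SE 0.24) and -0.42 for Rfxank (SE 0.22). The NF-Y subunits, which bind the Y box, had 0.11 for Nfya, 0.062 for Nfyb and -0.036 for Nfyc. None of these 6 had an unadjusted p under 0.05.

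Lysosomal processing genes had lower fitted values in 8 of 12 (median log2 fold change -0.18), 0 with an edgeR p under 0.05. Lamp1, a lysosomal membrane protein, had -0.32 (SE 0.19) and the cathepsin gene Ctsz -0.24 (SE 0.17). Ctss, the cathepsin that trims the invariant chain in antigen-presenting cells, had 313, 259 and 182 CPM in PKCzeta replicates 2-1, 4-1 and 4-2, and 285, 257 and 337 CPM in GFP replicates 1-1, 1-4 and 3-1.

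Genes of the interferon gamma axis, the classical inducer of Ciita, had 9 higher and 7 lower of 16 tested (median log2 fold change 0.11). Gbp2 and Gbp5, interferon-induced GTPases, were higher with an edgeR p under 0.05 before adjustment, with 1.73 (SE 0.41) and 1.81 (SE 0.47), and their groups did not overlap. These were 2 of the 16, where 2.41% of all genes were higher at such a p and 4.72% had groups apart with PKCzeta higher. Irf1, an interferon-induced transcription factor, had a log2 fold change of 0.092 (SE 0.23). Ifng itself was at 0.046, 0.11 and 0 CPM in PKCzeta replicates 2-1, 4-1 and 4-2 and at 0.076, 0 and 0 CPM in GFP replicates 1-1, 1-4 and 3-1, below the filter. Co-stimulators and T cell partners of class II had 8 of 11 higher (median 0.63). Among these, Cd86 (0.93, SE 0.40, unadjusted p 0.049 in edgeR) was the 1 gene of the list under 0.05 (2.41% of all genes in that direction). Cd40 had 1.23 (SE 0.59).

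MHC class I presentation genes had lower fitted values in 12 of 13 (median log2 fold change -0.35), with 1 lower and 1 higher at an edgeR p under 0.05 before adjustment (3.07% and 2.41% of all genes). The lower one was Tapbp, which loads peptide onto class I (-0.60, SE 0.21), and the higher one was Nlrc5. B2m, the shared light chain, had 1256, 1099 and 652 CPM in PKCzeta replicates 2-1, 4-1 and 4-2, and 1539.8, 1312 and 1555 CPM in GFP replicates 1-1, 1-4 and 3-1. Its log2 fold change of -0.55 (SE 0.26) stood beside -0.62 (SE 0.27) for H2-Ab1, and the difference between the 2 genes was not tested.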

How the data were processed

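Per the labels' protocols, total RNA was column-purified, depleted of ribosomal RNA and made into stranded libraries. FastQC, Trimmomatic, HISAT2 and StringTie with mm10 are named in the submitters' processing notes; the counting step and its use of strand are not given in these sources. The deposited table gives whole-number read counts, FPKM and TPM per gene and library, all made by the authors.

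Counts were tested with edgeR 4.0.16 (R 4.3.3): filterByExpr kept 18456 genes, TMM scaling, robust quasi-likelihood F test, two-sided, with Benjamini-Hochberg adjustment over all of them. The TMM factors were 1.002, 1.049 and 1.194 in PKCzeta replicates 2-1, 4-1 and 4-2. They were 0.929, 0.9735 and 0.8814 in GFP replicates 1-1, 1-4 and 3-1, and a larger factor lowers CPM. The biological coefficient of variation was 0.354. Intervals are at 95%. The deposited TPM values gave levels between genes and an alternative test; the deposited FPKM values gave apparent lengths only. Log2 CPM used a prior count of 2. Alternatives used DESeq2 1.42.0, limma 3.58.1, other scalings and filters, and each library left out. RefSeq positions (GRCm38.p6) matched 45675 of 45777 gene IDs. The members, lists and rules were chosen with earlier results of these data known. Named from each list, apart from the cell marker lists, were the 2 genes with the smallest p. Others, among them the genes named from the cell marker lists, were chosen after their values were seen.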

Additional observations from a re-analysis of the deposited data

How the results depend on the processing

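No member passed an adjusted p of 0.05 under any of the 15 alternatives, and H2-Aa, H2-Ab1, H2-Eb1, H2-DMa, H2-DMb1 and Cd74 were negative in all 15. DESeq2 called 82 genes (44 higher, 38 lower) where edgeR called 0, and each of the other alternatives, including every left-out library, gave 0. The members' median log2 fold change was -0.45 to -0.58 under other scalings, filters and tests. With 1 library left out it ran from -0.74 (without PKCzeta replicate 2-1) to -0.24 (without PKCzeta replicate 4-2), and the lowest and highest values were -0.29 and 1.33 for H2-DMb2 and -0.19 and 0.52 for Ciita. With all 6 libraries, voom gave 0.35 for H2-DMb2 and 0.040 for Ciita, against 0.86 and 0.28 in edgeR, and Ciita had 0.50 on log2(TPM + 1) and 0.60 on log2(TPM + 0.1). On log2(TPM + 1) and log2(TPM + 0.1) the median of all genes was itself 0.14 and 0.23, and the members' median stood at -0.59 and -0.69 relative to it. H2-Ab1 relative to the enterocyte sum had a log2 difference of 0.08 (PKCzeta minus GFP), and 0.25 on log2(TPM + 1); the cause was not tested. Other size factors cancel in such a ratio. No paired analysis was possible because the titles of the 2 groups share no replicate number. With 3 libraries per label, a log2 fold change of H2-Ab1 has an SE of 0.27, which limits what can be called.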
